A study of Mus musculus with 9 samples.

Results

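Axon guidance ligands and their receptors were examined in sorted mouse mammary luminal cells of 3 genotypes. The 73 genes were taken by symbol from the 55450 gene rows of the count table and comprise the semaphorins of classes 3 to 7, the A to D plexins, the neuropilins, the ephrins, the Eph receptors, the Slits and Robo receptors, the netrins, the Unc5 receptors, Dcc and Neo1. Of these, 70 are protein-coding genes, 35 of them ligands and 35 receptors, in 16 families. The other 3 are antisense RNAs of Plxna4 that carry the same symbol stem.

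Guidance cues were named for steering growing axons, but most of them act between many kinds of cells. Class 3 semaphorins are secreted and signal mainly through a neuropilin, which binds the ligand, and a plexin, which carries the signal into the cell, whereas the other classes studied here are mostly bound to the membrane and contact plexins directly. Ephrins and Eph receptors are both held at the cell surface and signal at contacts between neighbouring cells. Slits are secreted ligands of Robo receptors, and netrins bind Dcc, neogenin (Neo1) and Unc5 receptors. In the mammary gland these families are known for roles in the branching of ducts and in the adhesion between luminal and basal cells.

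All 9 libraries came from live EYFP+ cells sorted from the third, the fourth and the fifth mammary glands of adult nulliparous female mice. Every mouse carried K8CreERT2, a Cre recombinase that tamoxifen activates and that the Krt8 promoter drives in luminal cells, together with lsl-EYFP, a reporter that Cre switches on. The control libraries (n = 3) came from mice with these alleles alone, the LATS1/2-KO libraries (n = 3) from mice that also carried LATS1/2f/f, and the LATS1/2-Sox9-KO libraries (n = 3) from mice that carried LATS1/2f/f and Sox9f/f. All groups received 2 mg of tamoxifen on 5 consecutive days and were sorted 7 days after the last dose. LATS1 and LATS2 are the kinases of the Hippo pathway that restrain the coactivators YAP and TAZ, and Sox9 is a transcription factor of mammary progenitor cells. The sort used EYFP and viability only, so no surface marker of lineage was applied. Library totals ranged from 44167762 to 61967651 counts.

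The targeted genes were read first, as normalized counts (counts scaled to a common library size). Lats1 was at 5672, 5929 and 5940 in the control libraries, at 2090, 1923 and 2336 in the LATS1/2-KO libraries and at 2058, 1844 and 1709 in the LATS1/2-Sox9-KO libraries. It fell by 1.47 on the log2 scale in LATS1/2-KO (SE 0.11, edgeR adjusted p = 7.07e-06). Lats2 did not fall, with means of 1041 ± 177, 1471 ± 236 and 1592 ± 359 in the 3 groups (SD, n = 3), a log2 fold change of 0.50 between LATS1/2-KO and control (SE 0.20, adjusted p = 0.0571). Sox9 was lower than control in both deletion groups, at 21598 ± 1683, 9715 ± 2620 and 7343 ± 1281, and the step from LATS1/2-KO to LATS1/2-Sox9-KO did not pass the test (log2 fold change −0.40, SE 0.19, adjusted p = 0.25). Counts per gene do not separate transcripts that lack the floxed exons, and at this level Lats2 goes against its label and Sox9 does not tell the deletion groups apart. The names LATS1/2-KO and LATS1/2-Sox9-KO below therefore mean the libraries labelled so.

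The sorted cells read as luminal in every group. The 6 luminal markers summed to between 793718 and 1542107 normalized counts in a library, and Krt18 was the most abundant of them in all 9. Within that, the groups differed in cell state. All 6 mature luminal markers fell in LATS1/2-KO, their sum going from 234473 to 316250 in the control libraries to between 5175 and 21824, and 7 of 8 proliferation markers rose. Of 6 luminal progenitor markers only Ltf was called, lower at a log2 fold change of −2.59. Among 8 basal markers 4 rose and 2 fell, with Krt14 going from a mean of 672 to 177575. Markers of cells outside the epithelium were less abundant. Endothelial markers (8 genes, none at 0) summed to 6784 to 10416 in control, 920 to 1425 in LATS1/2-KO and 449 to 1117 in LATS1/2-Sox9-KO, led in control by Vwf (4610 to 5566), while Pecam1 was at most 467 in any library. Between LATS1/2-KO and control, Vwf and Eng were called lower (log2 fold changes of −4.99 and −3.35) and Kdr higher, the other 5 endothelial markers were not called, and the median log2 fold change of the 8 was 0.82. Fibroblast and pericyte markers (8 genes, none at 0) summed to 2592 to 9760, 2637 to 10174 and 2944 to 7577, led by Dcn in control and most often by Col3a1 in the deletion groups, and 6 of the 8 were called in LATS1/2-KO against control, with Col1a1, Col1a2, Col3a1 (8.79-fold) and Lum higher and Dcn and Rgs5 lower. Adipocyte markers (5 genes) summed to 184 to 289, 484 to 3497 and 86.3 to 1207, most of it Fabp4, with Adipoq or Cidec at 0 in each control library, and 4 of the 5 were called higher in LATS1/2-KO. Adipoq, Cidec and Lep had at most 3 counts in a control library. They passed the filter on low counts through the deletion groups alone, so their calls are no support for a difference. Immune markers (8 genes, Cd3e at 0 throughout) summed to at most 1599 and Schwann and neuronal markers (8 genes) to at most 13437, the latter mostly Map2. LATS1/2-KO replicate 1 stood somewhat apart, with a correlation of log2 CPM of 0.957 and 0.960 with replicates 2 and 3, which had 0.981 between them, and it held the highest fibroblast sum of its group (10174) and the highest Lyz2 of all libraries (956).

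The first comparison set the libraries labelled LATS1/2-KO against control. Of the secreted class 3 semaphorins 4 of 7 rose, as did the coreceptor Nrp2, while 4 of 6 membrane-bound class 4 semaphorins and Plxna3, a receptor subunit of class 3 signals, fell. Epha1, Efnb2 and Unc5b also rose, and Ephb3 and Robo1 also fell. Of the 73 genes, 56 passed the filter on low counts and were tested, and 13 were called higher and 16 lower in LATS1/2-KO (a change of more than 1 on the log2 scale at an edgeR adjusted p of at most 0.05). That is 51.8% of the tested members and 39.7% of all 73, against 34.6% of all 19357 genes tested (17.1% higher and 17.5% lower). The 13 include Sema3a, Sema3d and Unc5c, 3 genes at or under the floor in every control library that passed the filter through the deletion groups alone and so had to differ. Sema3a and Sema3d are among the 4 class 3 genes that rose. Robo2, called higher, also passed the filter through the deletion groups alone, with at most 8 counts in a control library. Ntn3, called lower, passed it only with the control libraries. In 32 members the 2 groups did not overlap, against 61.6% of all genes tested. The median log2 fold change of the tested members was −0.17, against 0.04 over all genes. In these bulk samples fewer cells of a type and less RNA per cell cannot be told apart.

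**Figure D1:**
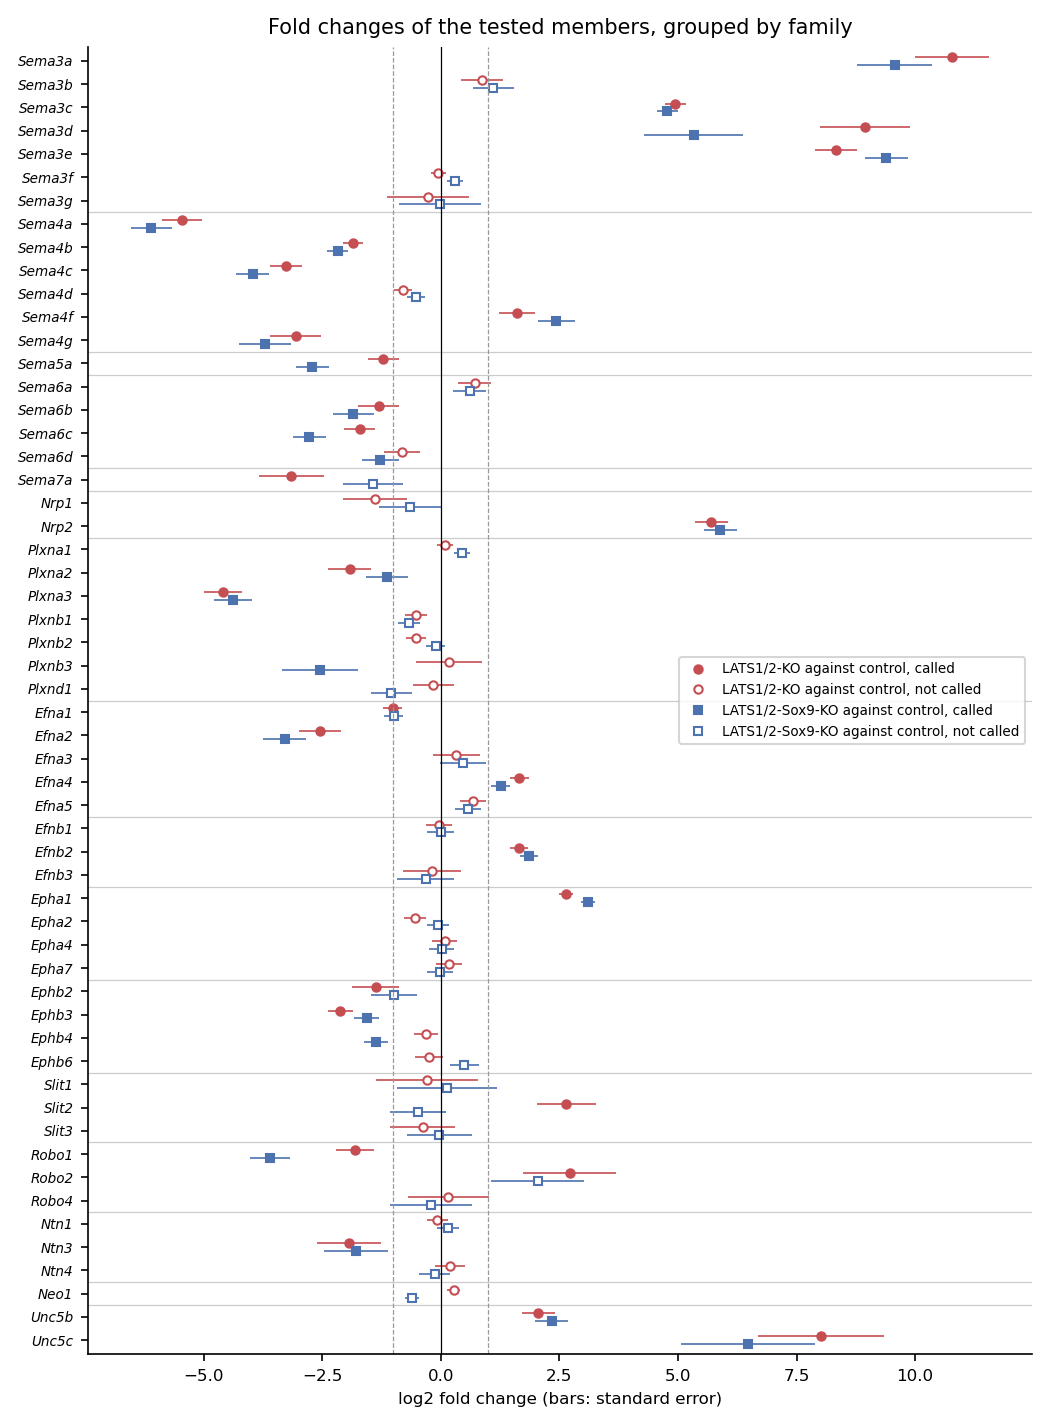
Log2 fold change against control of the 56 tested members (x axis, bars are standard errors), by family (grey lines part the families), for LATS1/2-KO (red circles) and LATS1/2-Sox9-KO (blue squares), filled where called, with dashed lines at −1 and 1. Sema3a lies furthest to the right in both sets, at 10.78 in LATS1/2-KO, and Sema4a and Plxna3 furthest to the left. The fitted values of Sema3a, Sema3d and Unc5c rest on control libraries at or near 0 and are no measure of size. Both sets share the control libraries.

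Class 3 semaphorins held the largest increases, with 4 of 7 called higher and none lower. Of the 4, Sema3a and Sema3d had to differ, since they passed the filter on low counts through the deletion groups alone. Sema3c and Sema3e were above the floor of 3 counts in every control library. Sema3c (chr5:17574281-17730268, mm10), a secreted cue that binds both neuropilins, was at 1648, 1366 and 1724 in control, at 35837, 62699 and 47234 in LATS1/2-KO and at 39316, 47679 and 43247 in LATS1/2-Sox9-KO. Each deletion library was at least an order of magnitude above each control library, and the log2 fold change was 4.94 (SE 0.22, adjusted p = 5.47e-07), a 30.8-fold rise. Sema3e (chr5:14025276-14256689), which binds Plxnd1 without a neuropilin, went from 39.4, 63.5 and 14.9 to 14108, 11611 and 12646, a 321-fold rise (log2 fold change 8.33, SE 0.44, adjusted p = 1.18e-06), and stood at 18305, 32642 and 29336 in LATS1/2-Sox9-KO. Sema3a (chr5:13125414-13602565), the classical repellent that acts through Nrp1, had at most 1 count in a control library and 844, 849 and 1029 normalized counts in LATS1/2-KO. Against the floor of 3 counts per library it was at least 256-fold higher (adjusted p = 5.02e-06). Sema3d (chr5:12383385-12588948) had at most 1 count in a control library and was at 372, 309 and 85.7 in LATS1/2-KO, at least 72.3-fold higher (adjusted p = 3.89e-05). Since Sema3a and Sema3d had to differ, their adjusted p-values are no support for a difference. The members that did not pass the test were Sema3f, the most abundant of the class in control (3995 ± 702 against 3847 ± 593 in LATS1/2-KO, SD, n = 3), Sema3b (38.3 against 70.1, adjusted p = 0.12, called higher at 1.35 with adjusted p = 0.023 after adjustment for GC content) and Sema3g, whose means were below 30.

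The 4 genes that rose all lie on chromosome 5 within 5.35 Mb (chr5:12383385-17730268), whereas Sema3b and Sema3f lie on chromosome 9 and Sema3g on chromosome 14. Among the 11 other tested genes of that interval 5 were called higher in LATS1/2-KO, namely Cacna2d1, a calcium channel subunit, Speer3 and 3 predicted genes, and 1 was called lower, Pclo, which encodes a presynaptic protein, beside 17.1% and 17.5% of all genes tested. The interval was drawn around the 4 genes after their values were seen, so these counts are a description only.

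Of the 2 neuropilins, Nrp2 (chr1:62703285-62818695), which binds Sema3c and Sema3f, went from 40.6, 81.6 and 59.7 in control to 3852, 2604 and 3043 in LATS1/2-KO, a 52.0-fold rise (log2 fold change 5.70, SE 0.35, adjusted p = 2.54e-06). The groups were far apart, and LATS1/2-Sox9-KO was at 2258, 4302 and 4261. Nrp1, the partner of Sema3a, ran from 261 to 1111 in control and from 98.3 to 572 in LATS1/2-KO, so that the groups overlapped (log2 fold change −1.39, SE 0.67, adjusted p = 0.101). The call depended on the setting and on single libraries. With all libraries Nrp1 was called lower with no filter (−1.39, adjusted p = 0.0478) and after adjustment for GC content (−1.76, adjusted p = 0.0476), without LATS1/2-KO replicate 1 it was −2.61 (adjusted p = 0.00285), and without control replicate 1 it was −1.79 (adjusted p = 0.0447). Neuropilins are also carried by endothelial and stromal cells. In the order control replicates 1 to 3 and LATS1/2-KO replicates 1 to 3, Nrp1 was at 261, 1111, 721, 572, 98.3 and 129 and the fibroblast and pericyte sum at 2592, 4465, 9760, 10174, 2637 and 3266. In LATS1/2-Sox9-KO Nrp1 was at 440, 382 and 516 beside sums of 2944, 4116 and 7577. The endothelial sums in the same order were 8226, 6784, 10416, 1425, 920 and 1050, and 449, 996 and 1117 in LATS1/2-Sox9-KO. The part of such cells in the Nrp1 values was not tested.

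Class 4 semaphorins went the other way, with 4 of 6 called lower, 1 higher and 1 not called. Sema4a (chr3:88435959-88461182), a transmembrane ligand also known from immune cells, was at 8388, 9913 and 13524 in control and at 362, 120 and 245 in LATS1/2-KO, a 43.9-fold difference (log2 fold change −5.45, SE 0.42, adjusted p = 6.36e-06). Sema4c (chr1:36548639-36558349), a ligand of Plxnb2, went from 11318, 9992 and 6469 to 924, 678 and 1305 (log2 fold change −3.26, SE 0.34, adjusted p = 3.33e-05). No deletion library reached the lowest control library for either gene, and Sema4c shares 334 exon bases with D430040D24Rik on the other strand, so that its reads may include some of that gene. Sema4b fell by 1.85 and Sema4g by 3.06 on the log2 scale (adjusted p = 7.06e-05 and 0.000791), and without LATS1/2-KO replicate 1, its highest library (44.1 against 10.2 and 14.6), the value of Sema4g was −3.93. Sema4d, the ligand of Plxnb1, was lower with groups that did not overlap (3363 ± 110 against 1941 ± 402), but its log2 fold change of −0.79 was short of the threshold (adjusted p = 0.00559). Sema4f alone rose, from 108, 70.3 and 61.0 to 276, 132 and 321 (3.04-fold, SE 0.38 on the log2 scale, adjusted p = 0.0046). The fall of these genes went with that of the mature luminal markers given above, and the part of mature luminal cells in it was not tested.

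Summed per class, the exchange was visible in each library. Levels compared between genes are given per length, as counts divided by exon length and library size (the FPKM scale). The summed level of the 7 class 3 genes was 21.9, 16.6 and 17.7 in control and 136, 202 and 166 in LATS1/2-KO, while that of the 6 class 4 genes was 90.2, 89.9 and 88.7 in control and 12.2, 9.41 and 15.2 in LATS1/2-KO. Class 4 exceeded class 3 in every control library and class 3 exceeded class 4 in every deletion library.

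**Figure D2:**
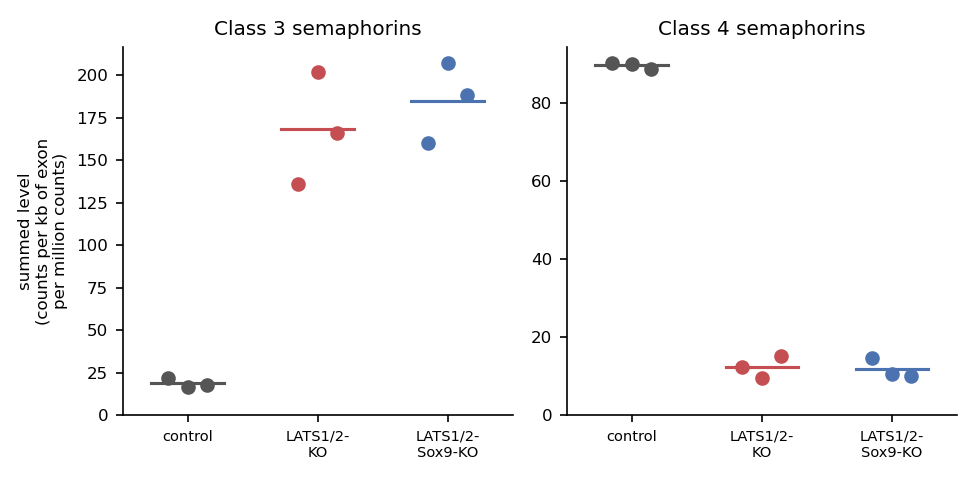
Summed level per length (y axis, FPKM scale, starting at 0) of the class 3 and class 4 semaphorins in each library (points), with group means (lines). The class 3 sum lies between 16.6 and 21.9 in control and between 136 and 207 in the deletion groups, and the class 4 sum between 88.7 and 90.2 in control and at most 15.2 in the deletion groups.

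The remaining semaphorins mostly fell. Sema7a, a lipid-anchored ligand of Plxnc1 and integrins, was at 695, 695 and 1690 in control and at 182, 40.7 and 126 in LATS1/2-KO (log2 fold change −3.15, SE 0.68, adjusted p = 0.00301). Among the transmembrane class 6 genes Sema6c and Sema6b fell, by 1.71 and 1.31 (adjusted p = 0.00163 and 0.025), whereas Sema6a and Sema6d did not pass the test (0.72 and −0.82, adjusted p = 0.106 and 0.0919). Sema6a was past both thresholds without LATS1/2-KO replicate 2 (log2 fold change 1.01, adjusted p = 0.0193). Sema5a fell by 1.21 (SE 0.33, adjusted p = 0.0109), from a mean of 271 to 117, and was at −0.99, just short of the fold threshold, without LATS1/2-KO replicate 2. Sema5b had at most 1 count in any library.

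Of 9 plexins, the signalling receptors for all of these ligands, 7 were tested and 2 fell. The called share was 28.6% of those tested, against 34.6% of all genes tested. Plxna3 (chrX:74329066-74344689) was at 7801, 11450 and 10978 in control and at 656, 229 and 372 in LATS1/2-KO, a 24.1-fold difference (log2 fold change −4.59, SE 0.40, adjusted p = 1.34e-05). Plxna2 went from 169, 218 and 336 to 96.3, 28.8 and 65.7 (log2 fold change −1.92, SE 0.45, adjusted p = 0.00473). Plxna1, the other A plexin with a sizeable count, did not pass the test, at 3919 ± 279 in control and 4180 ± 912 in LATS1/2-KO (log2 fold change 0.09, SE 0.17, adjusted p = 0.677), and the predicted gene Gm26811 on the other strand shares 970 bases of its exons. Plxnb2 was the plexin with the highest level per length, at 65.9 ± 4.09 in control and 45.5 ± 12.4 in LATS1/2-KO (log2 fold change −0.53, adjusted p = 0.0539), and Plxnb1, Plxnb3 and Plxnd1 were also not called. Plxnd1, the receptor of Sema3e, stood at 174 and 156 normalized counts on average in these groups.

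**Figure D3:**
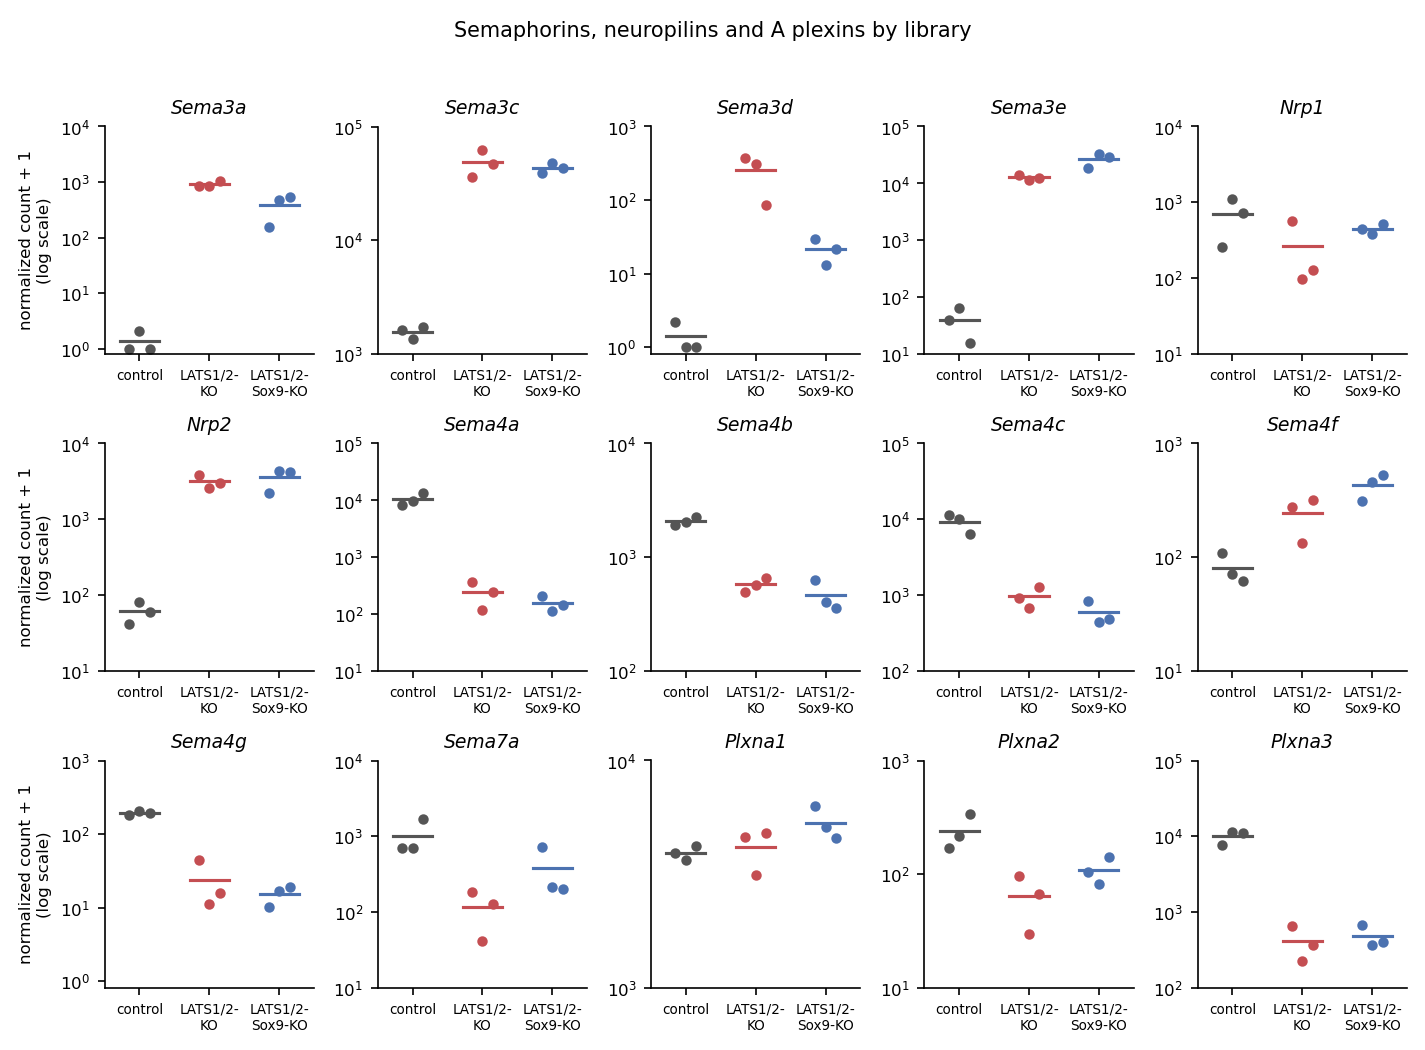
Normalized count plus 1 in each library (points, log axis whose range differs by panel) of class 3, 4 and 7 semaphorins, neuropilins and A plexins, with group means (lines), for control (grey), LATS1/2-KO (red) and LATS1/2-Sox9-KO (blue). Sema3a, Sema3c, Sema3d, Sema3e and Nrp2 lie higher in every deletion library than in any control library, Sema4a, Sema4b, Sema4c, Sema4g and Plxna3 lie lower, and Nrp1 and Plxna1 overlap between control and LATS1/2-KO.

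Among ephrins and Eph receptors, Epha1 and 2 ligands rose while Ephb3 and 2 other ligands fell. Epha1 (chr6:42358487-42373268), an EphA receptor of epithelia, was at 2183, 2091 and 1849 in control and at 13554, 12796 and 11747 in LATS1/2-KO, a 6.22-fold rise with little spread in either group (log2 fold change 2.64, SE 0.15, adjusted p = 1.83e-06). The gene shares 236 exon bases with Zyx on the other strand. Efnb2 (chr8:8617434-8661242), the transmembrane ligand of Ephb4 known from arteries, went from 1463, 1613 and 1108 to 4864, 3269 and 4933 (log2 fold change 1.64, SE 0.19, adjusted p = 6.17e-05). Efna4, a lipid-anchored ligand of EphA receptors, rose from 420, 315 and 335 to 1010, 1109 and 1270 (log2 fold change 1.66, SE 0.20, adjusted p = 8.27e-05), and shares 168 exon bases with 4731419I09Rik on the other strand. Ephb3 (chr16:21204755-21223305), a receptor of B-type ephrins, fell from 8987, 7556 and 5068 to 1606, 1246 and 2120 (log2 fold change −2.12, SE 0.26, adjusted p = 9.93e-05). Efna2 fell by 2.54 on the log2 scale (adjusted p = 0.000795). Efna1, the ligand of Epha2 with the highest level per length of all ligands in control, fell from 8162, 7675 and 4559 to 2969, 3786 and 3384, at a log2 fold change of −1.01 (SE 0.20, adjusted p = 0.00162) that sat on the threshold: it was −0.85, −0.92 and −0.92 without control replicate 1, control replicate 2 or LATS1/2-KO replicate 1, and −0.65 after adjustment for GC content. Ephb2 was called lower (−1.37, adjusted p = 0.0391) from means of 81.5 and 31.5 whose libraries overlapped, and it lost the call without control replicate 1 or 2, LATS1/2-KO replicate 1 or 2 or LATS1/2-Sox9-KO replicate 2, with −1.04 (adjusted p = 0.152) the smallest size among these. It was also not called after adjustment for GC content (−0.96, adjusted p = 0.113), with the replicate block (−1.26, adjusted p = 0.0833) or with both (−0.85, adjusted p = 0.199).

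The most abundant Eph receptor did not pass the test. Epha2 was at 25962, 25795 and 21007 in control and at 18649, 11327 and 20008 in LATS1/2-KO, groups that did not overlap (log2 fold change −0.54, SE 0.23, adjusted p = 0.0681). Epha4 and Epha7, Ephb4 and Ephb6, and the ligands Efna3, Efna5, Efnb1 and Efnb3 were likewise not called, with log2 fold changes from −0.31 to 0.68. Epha3, Epha5, Epha6, Epha8, Epha10 and Ephb1 were not tested, having at most 23 counts in any library.

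The promoters below hold the letters GGAATG, the core that TEAD factors, the DNA-binding partners of YAP and TAZ, recognise, and belong to genes named above. They are shown because LATS1/2 act on YAP and TAZ. Each is a RefSeq window (GRCm38.p6) of 250 bases before to 50 after a start site, printed 5′ to 3′ on the strand of the gene, with GGAATG or its complement CATTCC in capitals. The windows of Epha1 (chr6:42373219-42373518) and Efnb2 (chr8:8661193-8661492), both on the minus strand, lie at genes that rose, with the letters 161 and 105 bases before the start.
Epha1: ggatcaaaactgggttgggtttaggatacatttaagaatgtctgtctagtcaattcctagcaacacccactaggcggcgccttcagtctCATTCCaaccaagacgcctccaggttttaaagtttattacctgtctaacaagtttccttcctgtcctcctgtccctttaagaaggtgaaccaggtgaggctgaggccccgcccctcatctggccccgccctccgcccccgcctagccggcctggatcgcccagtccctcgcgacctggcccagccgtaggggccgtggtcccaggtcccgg
Efnb2: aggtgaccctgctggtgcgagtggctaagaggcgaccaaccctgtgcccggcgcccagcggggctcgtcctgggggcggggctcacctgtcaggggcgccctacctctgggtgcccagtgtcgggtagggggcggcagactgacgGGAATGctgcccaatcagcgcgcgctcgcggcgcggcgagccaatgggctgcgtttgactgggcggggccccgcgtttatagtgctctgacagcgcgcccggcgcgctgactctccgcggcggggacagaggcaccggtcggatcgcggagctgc
The window of Sema4a (chr3:88458835-88459134, minus strand), which fell, is at a start inside the gene's annotated span. The windows at the other starts of Sema4a did not hold the letters.
Sema4a: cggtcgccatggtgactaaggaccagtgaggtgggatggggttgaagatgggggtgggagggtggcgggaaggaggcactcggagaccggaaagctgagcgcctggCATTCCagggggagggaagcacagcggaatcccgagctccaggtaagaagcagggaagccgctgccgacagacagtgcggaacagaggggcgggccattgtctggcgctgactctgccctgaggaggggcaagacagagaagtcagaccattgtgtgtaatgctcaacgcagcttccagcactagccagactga
Of the 73 members, 60 had 76 such windows, and 9 of the 76 (11.8%) held the letters on either strand, against 14.7% of all 32851 windows. Windows of called members numbered 15 for genes that rose, of which 3 held the letters (Efnb2, Epha1 and Robo2), and 24 for genes that fell, of which 2 did (Ntn3 and Sema4a). The SOX letters AACAAT were in 3.95% of the members' windows and 10.7% of all, and the AP-1 letters TGANTCA in 3.95% and 7.81%. No motif contains another, though the ends of GGAATG and TGANTCA can share letters, both strands were searched, and a match describes the sequence, not binding.

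In the Slit and Robo families, a ligand rose while its main receptor fell. Slit2 (chr5:47983138-48307733) was at 31.3, 73.7 and 162 in control and at 523, 257 and 891 in LATS1/2-KO, a 6.27-fold rise (log2 fold change 2.65, SE 0.62, adjusted p = 0.00448) that was 3.39 without control replicate 3. Robo1 (chr16:72308306-73046095) went from 1133, 1547 and 1805 to 582, 184 and 523 (log2 fold change −1.80, SE 0.40, adjusted p = 0.00329). The libraries of the groups did not overlap for either gene. Robo2 was called higher (2.72, adjusted p = 0.038) from a mean of 6.61 to 44.7, but 110 of the normalized counts came from LATS1/2-KO replicate 1 against 10.2 and 13.7 in the other two, and without that library the value was 0.84 (adjusted p = 0.344). The call was also lost without any control library (adjusted p = 0.0686 to 0.108) and without LATS1/2-Sox9-KO replicate 3 (adjusted p = 0.052). With all libraries Robo2 was not called with the replicate block (2.35, adjusted p = 0.0906), after GC adjustment (2.37, adjusted p = 0.0635) or with both (1.99, adjusted p = 0.14). Robo2 had at most 8 counts in a control library and passed the filter on low counts through the deletion groups alone. Its adjusted p-value is therefore no support for a difference. Slit1, Slit3 and the endothelial receptor Robo4 had means below 30 and were not called, and Robo3 was not tested.

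For the netrins, a receptor rose while the most abundant ligand was not called. Ntn1, the founding netrin, was abundant and did not pass the test, at 14480, 15895 and 9089 in control and at 9111, 13345 and 15191 in LATS1/2-KO (log2 fold change −0.07, SE 0.23, adjusted p = 0.821), and Ntn4, a netrin of basement membranes, was at means of 1212 and 1385 (adjusted p = 0.63). Unc5b (chr10:60762593-60831581), a receptor that mediates repulsion by netrin, rose from 527, 532 and 210 to 2007, 1170 and 2120 (log2 fold change 2.06, SE 0.35, adjusted p = 0.000668). Unc5c had no count in control and 39.1, 31.3 and 26.4 normalized counts in LATS1/2-KO, at least 9.13-fold higher against the floor (adjusted p = 0.00126). It passed the filter through the deletion groups alone and so had to differ, and its adjusted p-value is no support for a difference. Neo1 did not pass the test (5227 ± 306 against 6293 ± 1261, adjusted p = 0.142). Dcc and Unc5d had no count in any library, Unc5a and Ntn5 at most 8, and Ntn3, called lower from a mean of 28.9 to 7.52 (adjusted p = 0.033), shares exon sequence with Tbc1d24 on the same strand. Ntn3 passed the filter on low counts only with the control libraries, so its adjusted p-value is no support for a difference.

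**Figure D4:**
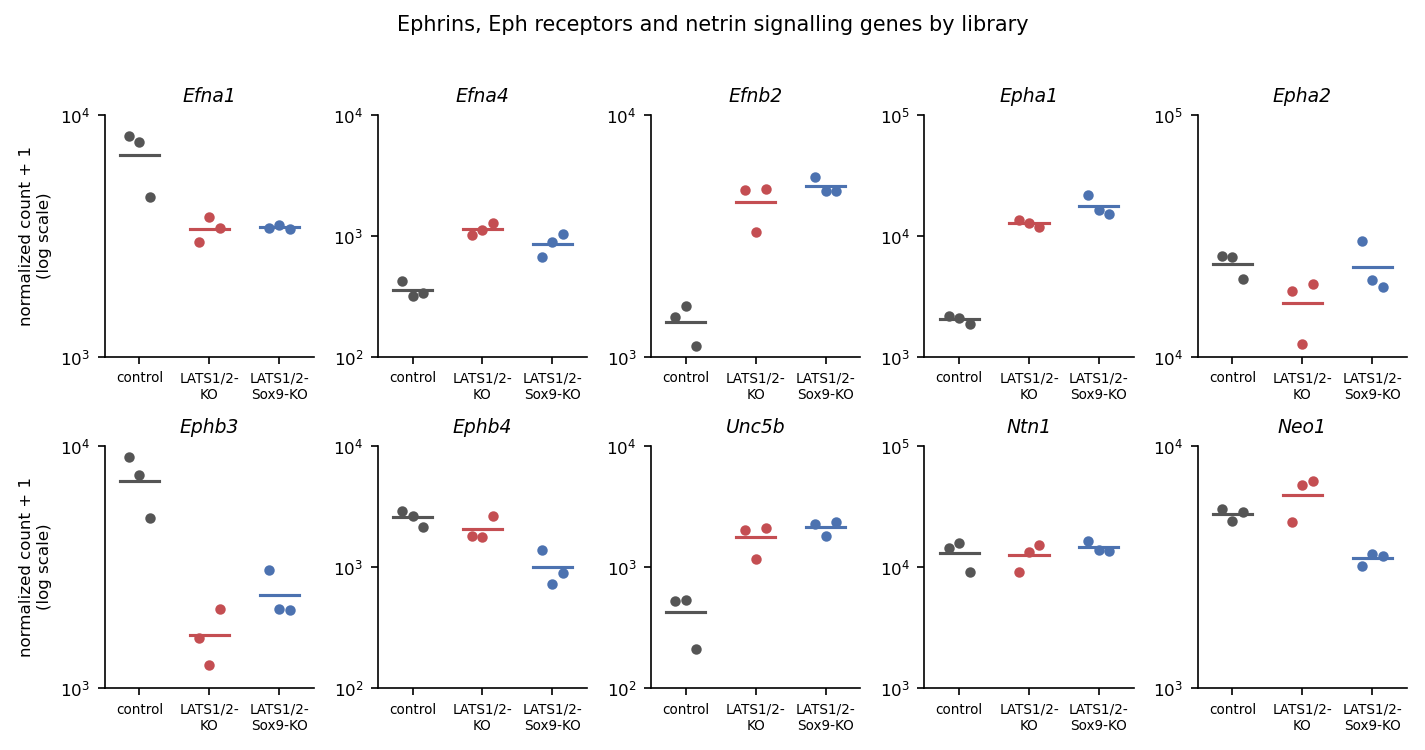
Normalized count plus 1 in each library (points, log axis whose range differs by panel) of ephrins, Eph receptors, Unc5b, Ntn1 and Neo1, with group means (lines), for control (grey), LATS1/2-KO (red) and LATS1/2-Sox9-KO (blue). Efna4, Efnb2, Epha1 and Unc5b lie higher in every deletion library than in any control library, Ephb3 and Efna1 lie lower, and Ntn1 overlaps in all 3 groups.

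Ligands and receptors were also set side by side, beside 17.1% of all genes tested called higher and 17.5% lower. Some genes recur across the pairs, so the counts are a description only. Of 27 textbook pairs, both partners rose in 2 (Sema3c with Nrp2, and Slit2 with Robo2, whose call rested on 1 library as given above), the ligand rose and the receptor fell in 1 (Slit2 with Robo1), and both fell in none. In 6 pairs the ligand rose with the receptor not called, among them Sema3e with Plxnd1, Sema3a with Nrp1 and Efnb2 with Ephb4. In 4 the ligand fell with the receptor not called, as for Sema4c with Plxnb2 and Sema4a with Plxnb1. With the ligand not called, the receptor rose in 3 pairs, fell in 4, was not called in 4 and was not tested in 2. In 1 pair the ligand fell with the receptor not tested.

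Per length, the order of the genes changed at its top. In control, Efna1 led the ligands at 69.0 ± 19.8, followed by Ntn1 (38.9 ± 10.6), Sema4c (37.5 ± 10.1) and Sema4a (36.5 ± 9.06), which lay within 1 SD of each other. In LATS1/2-KO Sema3c led at 126 ± 35.1, up from 4.11 ± 0.49 in control, followed by Ntn1 (37.1 ± 9.23) and Efna1 (34.3 ± 4.15), which were within their spread, and Sema3e (25.6 ± 2.51). Sema4a and Sema4c stood at 0.834 ± 0.415 and 3.92 ± 1.28. Among receptors Epha2 (96.4 ± 11.2), Plxnb2 (65.9 ± 4.09) and Plxna3 (23.8 ± 4.68) led in control, and Epha2 (66.2 ± 18.6), Epha1 (60.1 ± 4.29) and Plxnb2 (45.5 ± 12.4) in LATS1/2-KO, where the levels of Epha2 and Epha1 were within their spread.

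The second comparison set the libraries labelled LATS1/2-Sox9-KO against those labelled LATS1/2-KO, between which the Sox9 counts themselves did not pass the test. Few members differed: 5 were lower in LATS1/2-Sox9-KO than in LATS1/2-KO and none was higher. The 5 were Slit2 and its receptor Robo1, the semaphorins Sema3d and Sema5a, and Ephb4. They are 8.93% of the 56 tested, against 3.71% of all genes tested (1.55% higher and 2.16% lower). At an unadjusted p below 0.05, 5 members were higher and 10 lower by edgeR, and DESeq2 called 2 higher (Sema3e and Sema7a) and 8 lower. In 13 members the groups did not overlap, against 27.9% of all genes tested. Cell type markers moved in the same comparison: Krt17 was called higher (log2 fold change 2.76), and the basal markers Acta2 (−1.34), Cnn1 (−2.09) and Oxtr (−2.55), the luminal progenitor markers Cd14 (−1.11) and Csn3 (−1.51), Pgr (−3.43) and Tek (−2.27) were called lower. Their part in the members' values was not tested.

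Slit2 fell back to 77.0, 37.9 and 75.6, within the range of the control libraries (log2 fold change −3.13 against LATS1/2-KO, SE 0.63, adjusted p = 0.0214). Robo1 fell further, to 165, 105 and 99.3 (−1.80, SE 0.41, adjusted p = 0.0313), so that it stood 12.1-fold below control. Sema3d went to 28.8, 12 and 20.9 (−3.62, SE 0.61, adjusted p = 0.0122), between the other groups. Sema5a went to 33.4, 50.8 and 40.1 (2.83-fold lower, SE 0.34 on the log2 scale, adjusted p = 0.0335). Ephb4, the receptor of Efnb2, was at 2902, 2667 and 2143 in control, 1800, 1764 and 2642 in LATS1/2-KO and 1373, 730 and 892 in LATS1/2-Sox9-KO (−1.05, SE 0.25, adjusted p = 0.0371). Neo1 had groups that did not overlap, at 3211, 3578 and 3528 against 4844, 6898 and 7138, with a log2 fold change of −0.87 short of the threshold (SE 0.15, adjusted p = 0.0119), which became −1.03 without LATS1/2-KO replicate 1.

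Each of these 5 calls was lost when some single libraries were left out, although the direction held. None of the 5 was called when tested against a 2-fold change (glmTreat), and Sema3d and Slit2 but not the other 3 were called when only the compared groups were fitted. Sema5a was also not called with the replicate block (−1.51, adjusted p = 0.0649) or with the block and GC adjustment (−1.48, adjusted p = 0.0659). Slit2 had adjusted p = 0.0744 without LATS1/2-KO replicate 3 and between 0.0581 and 0.0909 without any LATS1/2-Sox9-KO library, and Sema3d 0.0589 without LATS1/2-Sox9-KO replicate 2. Sema5a was above the threshold without control replicate 1 or 2, LATS1/2-KO replicate 1 or 3 or any LATS1/2-Sox9-KO library (0.051 to 0.109), Robo1 without control replicate 2, LATS1/2-KO replicate 1 or 3 or LATS1/2-Sox9-KO replicate 2 or 3 (0.0521 to 0.121), and Ephb4 without control replicate 1 or 2, LATS1/2-KO replicate 2 or 3 or LATS1/2-Sox9-KO replicate 2 or 3 (0.0536 to 0.136).

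**Figure D5:**
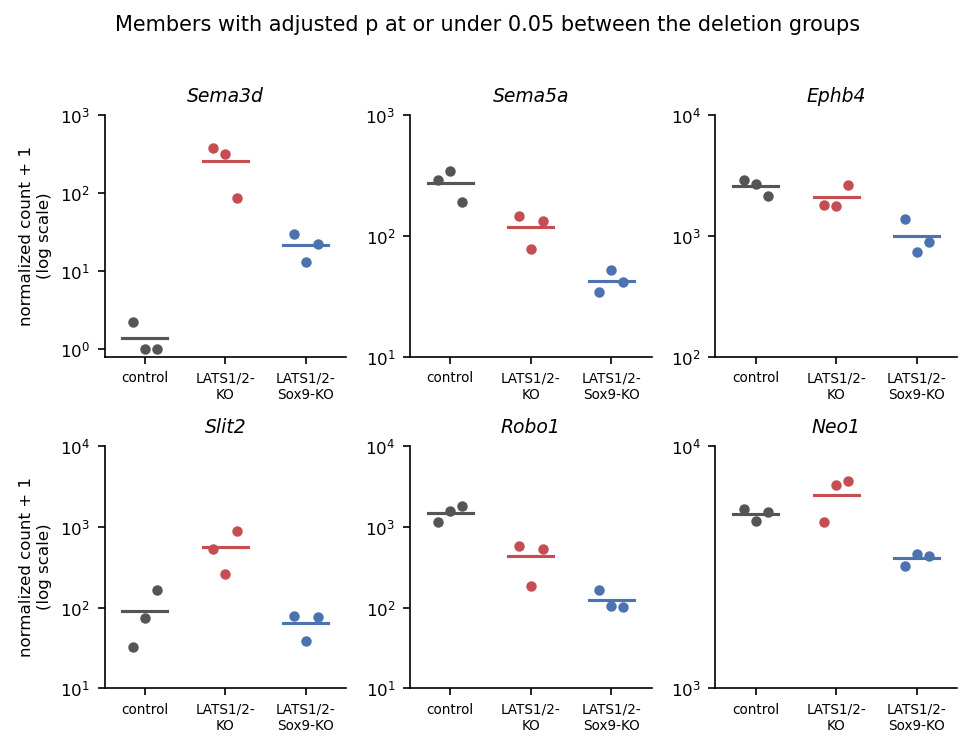
Normalized count plus 1 in each library (points, log axis whose range differs by panel) of the 6 members with an adjusted p of at most 0.05 between LATS1/2-Sox9-KO (blue) and LATS1/2-KO (red), beside control (grey), with group means (lines). In all 6 panels every LATS1/2-Sox9-KO library lies below every LATS1/2-KO library, and for Slit2 the LATS1/2-Sox9-KO libraries lie in the range of control.

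Most of the large changes seen in LATS1/2-KO had no called difference between the deletion groups. Sema3c had a log2 fold change of −0.16 between the deletion groups (SE 0.19, adjusted p = 0.669), Nrp2 0.19 (SE 0.28, adjusted p = 0.746), Sema4a −0.64 (SE 0.37, adjusted p = 0.341) and Plxna3 0.21 (SE 0.36, adjusted p = 0.777). The groups did not overlap for Sema3e (1.07, SE 0.31, adjusted p = 0.0712), Epha1 (0.47, SE 0.14, adjusted p = 0.0796), Sema3a (−1.20, SE 0.41, adjusted p = 0.112) and Sema7a (1.72, SE 0.65, adjusted p = 0.153). Sema3e was called higher without control replicate 3 (1.09, adjusted p = 0.0206), by DESeq2 (1.07, adjusted p = 0.0143), with no filter (1.10, adjusted p = 0.0134) and with only the compared groups fitted (1.06, adjusted p = 0.0304). DESeq2 also called Sema3a lower (−1.20, adjusted p = 0.0378) and Sema7a higher (1.72, adjusted p = 0.0334). Sema7a was at 0.87 without LATS1/2-Sox9-KO replicate 1, its highest library (728 against 213 and 200).

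Against control, LATS1/2-Sox9-KO had 11 members higher and 16 lower, 48.2% of those tested, against 37.4% of all genes (17.8% higher and 19.6% lower), and the groups did not overlap in 36, against 68.8% of all genes. This comparison shares its control libraries with the first. All 6 mature luminal and 5 of 6 luminal progenitor markers were called lower in it, and 7 of 8 proliferation markers higher. Of 8 basal markers 4 were called higher and 3 lower, and of 8 endothelial markers 1 higher and 3 lower. Of 8 fibroblast and pericyte markers 3 were called higher and 3 lower, and of 5 adipocyte markers 3 higher, under the limit given above for Adipoq, Cidec and Lep. The part of these shifts in the members' values was not tested. Beside the values given above for LATS1/2-KO, the log2 fold changes were 4.78 for Sema3c, 9.39 for Sema3e, 5.89 for Nrp2, 3.11 for Epha1, 1.86 for Efnb2, 1.27 for Efna4 and 2.34 for Unc5b, all called. Sema3a, Sema3d and Unc5c were at least 111, 5.81 and 3.08-fold higher than control. Sema4a was at −6.10, Sema4c at −3.96, Plxna3 at −4.38, Ephb3 at −1.56 and Robo1 at −3.60, all called lower. Slit2 was not called (−0.48, adjusted p = 0.52), nor was Sema7a (−1.43, adjusted p = 0.0777), which was called lower by DESeq2 (−1.46, adjusted p = 0.0251), with no filter (−1.38, adjusted p = 0.0372), with the replicate block (−1.61, adjusted p = 0.0322) and without LATS1/2-Sox9-KO replicate 1 (−2.29, adjusted p = 0.0117). Ephb4 was called lower here (−1.36, adjusted p = 0.00101) and was at −0.91 after adjustment for GC content. Plxna2 (−1.14, adjusted p = 0.0471) lost its call without control replicate 2 or 3, LATS1/2-KO replicate 3 or any LATS1/2-Sox9-KO library, with −0.81 (adjusted p = 0.171) the smallest size, and Efna1 (−0.99) was past the fold threshold without control replicate 3 (−1.20).

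Other genes of the pathway, in 2 lists taken from general knowledge, also moved in both directions. Of 36 coreceptors, other ligands and shedding proteases, 33 were tested, with 8 higher and 9 lower in LATS1/2-KO, which is 51.5% against 34.6% of all genes tested, and their median log2 fold change was −0.09 against 0.04 over all genes. The lymphangiogenic factor Vegfc rose from 91.6, 121 and 110 to 880, 988 and 911 (log2 fold change 3.11, SE 0.18, adjusted p = 2.17e-06), while Vegfa, a ligand that neuropilins also bind, fell from 11468, 12599 and 15072 to 2641, 1439 and 2240 (−2.63, SE 0.28, adjusted p = 4.37e-05). Dscam, an adhesion molecule that also binds netrins, went from 3679, 5196 and 4625 to 0, 0 and 12.8 (adjusted p = 4.49e-06), and its fitted log2 fold change of −10.00 rests on few counts (−15.11 without LATS1/2-KO replicate 3 and −9.39 without replicate 2). Dscam passed the filter on low counts only with the control libraries, so its adjusted p-value is no support for a difference. Lingo1, a coreceptor of the Nogo receptor, fell by 3.04 (adjusted p = 0.00498, −3.81 without LATS1/2-KO replicate 3). Flrt2, a ligand of Unc5 receptors, rose by 2.93 (adjusted p = 0.00505), but LATS1/2-KO replicate 1 held 3116 against 454 and 790, and without it the value was 1.71. The VEGF receptor Kdr, also an endothelial marker, was called higher (2.43, adjusted p = 0.0179) at means of 25.3 and 136, with 3.06 without control replicate 3 and no call without LATS1/2-KO replicate 3 (2.04, adjusted p = 0.0598).

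Of 78 intracellular effectors, 74 were tested, with 17 higher and 14 lower in LATS1/2-KO, which is 41.9% against 34.6% of all genes tested, and a median log2 fold change of 0.04, equal to that of all genes. The regulator of microtubules Stmn1 rose from 220, 423 and 225 to 3347, 2979 and 3019 (log2 fold change 3.43, SE 0.24, adjusted p = 4.54e-06). Its neuronal relative Stmn2 had at most 2 counts in a control library and was at 1444, 236 and 287 (adjusted p = 0.000118). Stmn2 passed the filter on low counts through the deletion groups alone and so had to differ, and its adjusted p-value is no support for a difference. Its fitted log2 fold change of 8.97, which rests on control libraries near 0, was 7.65 without LATS1/2-KO replicate 1. Srgap1, which binds Robo receptors, rose by 3.54 (adjusted p = 0.000194, 4.25 without control replicate 1). Ngef, an effector of EphA receptors, fell by 3.05 and Rap1gap, a brake on Rap1, by 2.94 on the log2 scale (adjusted p = 4.36e-05 and 7.21e-06). Between the deletion groups 2 genes of the first list were higher, L1cam (1.53, adjusted p = 0.0116) and Sdc1 (1.33, adjusted p = 0.0121), and 1 was lower, Ntng1 (−1.89, adjusted p = 0.0171), which is 9.09% of that list's tested genes against 3.71% of all genes. L1cam is a neural adhesion molecule and went from 789, 552 and 747 to 2640, 1676 and 1714. The heparan sulfate proteoglycan Sdc1 lost its call without LATS1/2-KO replicate 3 (adjusted p = 0.0503), and Ntng1, a lipid-anchored netrin relative, without LATS1/2-KO replicate 3 or LATS1/2-Sox9-KO replicate 1 or 2 (adjusted p = 0.0569 to 0.081). No effector was called there by edgeR or DESeq2, with 8 higher and 6 lower at an unadjusted p below 0.05 in edgeR. Against control, LATS1/2-Sox9-KO had 7 higher and 10 lower in the first list (51.5% of those tested) and 17 higher and 16 lower in the second (44.6%), against 37.4% of all genes.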

How the data were processed

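Gene counts of 9 libraries were used as the authors deposited them: raw counts per gene, from reads that STAR 2.6.0c aligned to mm10 and that featureCounts (Subread 1.6.2) assigned to Ensembl genes, kept as uniquely aligned proper pairs of non-mitochondrial genes. The methods give a same-strand counting setting, whereas the kit does not mark strand. Which setting made the counts was not resolved, so overlapping antisense genes are uncertain. Normalized counts were scaled with TMM factors. Genes were filtered with filterByExpr and tested in edgeR 4.0.16 (R 4.3.3) by the quasi-likelihood test over all 9 libraries and 19357 genes with Benjamini-Hochberg adjustment, and a call needed a change of more than 1 on the log2 scale in either direction and an adjusted p no higher than 0.05. DESeq2, the authors' tool, was run here as version 1.42.0 as an alternative. The steps were tested on simulated data. Exon lengths, positions and symbols (55190 of 55450 rows) came from GENCODE M21. Ensembl identifiers were the rows of the table. Nothing says that libraries of a group came from separate mice, so p-values measure the spread between these samples. The counting floor was 3 counts per library and covers counting error only.

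Members and gene lists were chosen with earlier results of these data known. Genes named were the 24 called members with the largest changes and a mean of at least 100, the partners of 27 pairs, the highest member per length of each family, all members called between the deletion groups, and the 3 largest called changes each way in each pathway list with a mean of at least 100, of which 1 is not reported here. Other members were named to account for the whole list, after their values were seen. In all, 21 alternatives were tried.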

Additional observations from a re-analysis of the deposited data

How the results depend on the processing

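Of the 17 untested members, 6 had no count in any library and the others at most 23, so no difference was detectable in them at this depth. All scalings moved the median of all genes by less than 0.1. In LATS1/2-KO against control, members higher ranged from 12 to 14 and lower from 12 to 16 when single libraries were left out, and other pathway genes from 22 to 27 and from 19 to 24, with 14 higher under the glmTreat test against a fold change of 2 and 37 lower by adjusted p alone. Between the deletion groups, members higher ranged from 0 to 1 and lower from 0 to 5, and other pathway genes from 1 to 3 and from 0 to 3. Members higher were 2 by DESeq2, 1 with no filter and 1 with only the compared groups fitted, and lower were 8 by DESeq2, 2 with only the compared groups and 0 by glmTreat. Other pathway genes higher there were 0 by glmTreat and 6 by adjusted p alone, and lower were 3 by DESeq2, 2 with upper-quartile factors, with no filter, with at least 10 counts in every library or by adjusted p alone, and 0 by glmTreat. In LATS1/2-Sox9-KO against control the ranges were 11 to 13 and 12 to 17 for members and 23 to 26 and 22 to 26 for other pathway genes, with 10 members lower by glmTreat and 40 other pathway genes lower by adjusted p alone. The cause of these shifts was not tested.

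Same-numbered libraries of different groups had correlations of their deviations from −0.0657 to 0.17, and libraries with different numbers from −0.164 to 0.0641. The highest values, 0.17 and 0.105, joined replicates 2 and replicates 1 of the deletion groups. With 3 libraries per group these values cannot decide whether the numbers pair the libraries. With the replicate block, the first comparison had 12 members higher and 13 lower, the second 0 and 4, and the third 12 and 17.

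Among the genes whose values were followed under the alternatives, which are not all of those tested, only genes that were not called changed sign. In LATS1/2-KO against control, GC adjustment, without and with the replicate block, gave log2 fold changes of 0.48 and 0.46 for Efnb1, 0.49 and 0.50 for Sema3f, −0.15 and −0.14 for Epha4, 0.22 and 0.23 for Ephb4, 0.46 and 0.47 for Ntn1, 0.40 and 0.31 for Plxnd1, and 0.12 and 0.11 for Slit3. Leaving out single libraries gave −0.24 to 0.15 for Efnb1, −0.17 to 0.10 for Sema3f (0.04 without LATS1/2-KO replicate 1), −0.18 to 0.24 for Epha4 (−0.13 without LATS1/2-KO replicate 2), −0.29 to 0.12 for Ntn1 (0.01 and 0.09 without control replicate 1 or 2), −0.01 to 0.25 for Plxna1, −0.18 to 1.07 for Plxnb3 (−0.10 without control replicate 2), −0.55 to 0.19 for Plxnd1 and −1.23 to 0.05 for Slit3. Slit2 in LATS1/2-Sox9-KO against control ranged from −0.88 to 0.28, the latter without control replicate 3.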
